A study of Caenorhabditis elegans with 39 samples.

Results

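The 9 genes described here encode the meiotic chromosome axis and the synaptonemal complex of *Caenorhabditis elegans*. They were taken by sequence name: *htp-1* (F41H10.10), *htp-2* (Y73B6BL.2), *htp-3* (F57C9.5), *him-3* (ZK381.1), *rec-8* (W02A2.6), *syp-1* (F26D2.2), *syp-2* (C24G6.1), *syp-3* (F39H2.4) and *syp-4* (H27M09.3). All 9 are among the 22844 mRNA features measured, and 8 are among the 6074 loci of 22G-RNAs, the 22-nucleotide class of small interfering RNAs that begin with guanosine. 22G-RNAs of *syp-3* were not analysed here. mRNAs and small RNAs were sequenced from distal gonads, the arms left after the proximal part was cut away, of hermaphrodites of 3 genotypes, and from whole wild type animals. The genotypes were wild type (N2), *mut-16(pk710)*, and *prg-1(n4357)*. All were gravid adults, collected 68 to 70 h after synchronization at 20°C, with 3 libraries per group and assay. The mutations are present in every tissue of the animal and not only in the germline, each mutant is 1 allele, and each gonad library pools many dissected arms. The study describes the replicates as biological, and the labels give only their numbers.

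In worm germ cells that enter meiosis, each pair of sister chromatids is organised along a protein axis, and a zipper-like structure, the synaptonemal complex, then joins the axes of homologous chromosomes so that crossovers can form. Cohesin containing the kleisin REC-8 and the HORMA-domain proteins HTP-3, HIM-3, HTP-1 and HTP-2 build the axis, and SYP-1 to SYP-4 are central components of the synaptonemal complex. Germline mRNAs are also templates for 22G-RNAs. Those bound by the Argonaute CSR-1 are made from many expressed germline genes, whereas those bound by the WAGO Argonautes need MUT-16 and are in part triggered by piRNAs bound to PRG-1.

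Each library's values summed to between 14202890 and 16823727 normalized mRNA reads. Small RNA values are whole multiples of 1 step per library (100% of values, within 0.01 of a read), and they returned 505952 to 1642602 reads from whole animals, 4215264 to 7051210 from wild type gonads and 2317176 to 3012349 from *mut-16* gonads. *prg-1* replicate 1 returned 5538872 reads at a step close to 1 (0.996) and was left out of the tests on recovered reads. *mut-16* replicate 3, at a step of 0.984, was kept. The other *prg-1* libraries held 4807115 and 2872222 reads. The mutated genes followed the labels: *prg-1* mRNA was lower in *prg-1* gonads than in wild type gonads (log2 change -0.97) and *mut-16* mRNA was lower in *mut-16* gonads (-1.12). Summed intestine markers (8 genes) were 53.8 to 283 normalized reads in wild type gonads and 97031 to 107171 in whole animals, and 4 of the 8 were at 0 in wild type gonad replicate 3. Summed germ cell markers (8 genes) were 79310 to 85007 and 51328 to 60635. Summed oocyte markers (8 genes) were 102936 to 110041 and 62483 to 80066, with 6 of the 8 called higher in gonads and 1, *perm-2*, lower.

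The first comparison asked how far these mRNAs are concentrated in the distal germline. A gene was called when the adjusted p of limma, over all 12761 mRNAs tested on log2(value + 1), was below 0.05 and the fold change was at least 1.3. In these terms 8 of 9 mRNAs were higher in gonads than in whole animals, where 26.1% of all mRNAs tested were. The median log2 change of the 9 was 0.66, and that of all mRNAs was -0.79. In bulk samples, fewer germ cells among the cells sampled and less of an mRNA per germ cell cannot be told apart.

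The HORMA-domain genes *htp-1* and *htp-2* had the largest differences. *htp-1*, whose product acts in homolog pairing and in keeping sister chromatids together, had 4483, 4147 and 4541 normalized mRNA reads in the gonad libraries and 1778, 1889 and 1945 in the whole animal libraries. Every gonad library lay above every whole animal library, and the fold change was 2.35 (log2 1.23 ± 0.06 SE, adjusted p = 2.82e-07, limma). *htp-2*, its near-identical paralog, had 1692, 1669 and 1821 reads in gonads and 889, 857 and 788 in whole animals (fold 2.04, log2 1.03 ± 0.07, adjusted p = 1.9e-06). RSEM divides reads that match both paralogs, so the separate values of this pair are less certain than those of the other genes.

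*htp-3*, which recruits the other HORMA proteins to the axis, had 3770, 3836 and 3953 normalized mRNA reads in gonads and 2480, 2110 and 2401 in whole animals. *him-3*, which is needed for pairing and synapsis, had 4847, 4632 and 4936 and 2812, 2965 and 3134. Neither gene's groups overlapped, and the folds were 1.66 for *htp-3* (log2 0.73, adjusted p = 1.51e-05, limma) and 1.62 for *him-3* (0.69, adjusted p = 7.46e-06). *rec-8*, the meiotic kleisin, had 2318, 2462 and 2524 reads in gonads and 1796, 1391 and 1634 in whole animals, again without overlap (fold 1.52, log2 0.61, adjusted p = 0.000306).

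Among the central-region genes, *syp-1* had 1761, 1740 and 1766 normalized mRNA reads in gonads and 1051, 1129 and 1155 in whole animals (fold 1.58, log2 0.66, adjusted p = 1.3e-05, limma). *syp-2* (fold 1.49, log2 0.58, adjusted p = 0.000105) and *syp-3* (fold 1.45, log2 0.54, adjusted p = 0.00171) also did not overlap between groups. *syp-4* was the exception. It had 2913, 2948 and 3379 reads in gonads and 2967, 2428 and 3045 in whole animals, the groups overlapped, and the log2 change was 0.13 with a 95% interval of -0.09 to 0.36 (adjusted p = 0.227). Nonoverlap in the gonad direction held for 34.4% of all mRNAs tested, and for 8 of these 9.

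**Figure D1:**
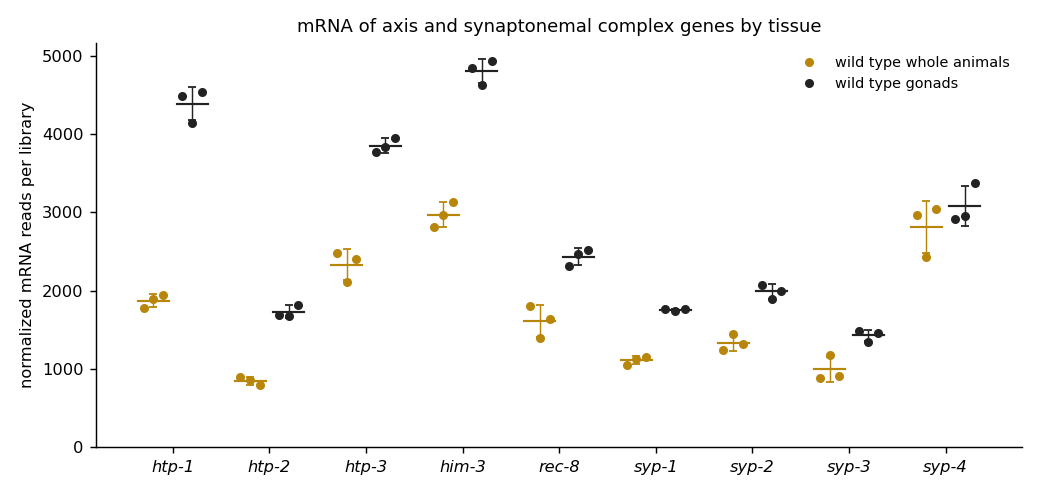
Normalized mRNA reads of the 9 genes in each of 3 whole animal and 3 distal gonad libraries of wild type (points), with the group mean (long bar) and SD (error bar). The gonad points lie above the whole animal points for every gene except *syp-4*, whose groups overlap.

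Most other genes of meiotic chromosome structure and recombination, in lists drawn from background knowledge, lay in the same direction. Of 12 cohesin subunits and axis partners, 8 were higher in gonads and 0 lower (median log2 change 0.56), led by the kleisin genes *scc-1* (2797 ± 117 and 1497 ± 93.5 normalized reads, mean ± SD, n = 3, log2 0.90) and *coh-4* (1897 ± 92.7 and 1023 ± 51.8, 0.89), the latter a close paralog of *coh-3*. Of 20 genes of pairing and synaptonemal complex assembly, 18 were higher and 0 lower (median 0.61). *chk-2*, the kinase that starts pairing and break formation, had 1088 ± 71.9 reads in gonads and 444 ± 27.9 in whole animals (1.29), and *hal-2*, which keeps the SYP proteins off unpaired chromosomes, had 1670 ± 42.5 and 897 ± 29.1 (0.90). Of 18 break and crossover genes tested, 16 were higher and 0 lower (median 0.54), with *dsb-3* at 0.84 and *him-14*, the worm MSH4, at 0.80 on the log2 scale. With library totals made equal, 7 of 12, 14 of 20 and 12 of 18 were higher and 0 lower. TMM over all features gave 10, 19 and 17 higher and 0 lower. Over all mRNAs tested, 26.1% were higher as deposited, 18.7% with equal totals and 30.3% under TMM.

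Similarity of profile was measured as the distance between log2 values of each mRNA, centred within each table, and the mean profile of the 9 genes over 15 libraries, for 5986 mRNAs with at least 100 reads on average in both tables. The closest other mRNAs were *mppb-1* (distance 0.12), B0024.11 (0.12), F13G3.6 (0.13), *set-29* (0.14) and *cps-6* (0.14). Of the 9 genes themselves, *him-3* ranked 25th and *syp-1* 67th in this order, while *htp-1* ranked 3630th and *syp-4* 3780th.

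22G-RNAs of these genes were then compared between the same tissues. All 8 loci belong to the CSR-1 class, labelled csr in the deposited annotation, which holds 3640 of the 6074 loci. In values as deposited, 7 of 8 loci were higher in gonads, against 60.9% of CSR-1-class loci and 31.9% of all small RNAs tested. The median log2 change was 1.09 for the 8 loci, 0.71 for the CSR-1 class and 0.18 for all 7191 small RNAs.

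*him-3* stood highest among them. Its locus gave 513, 525 and 605 normalized 22G-RNA reads in gonads and 156, 224 and 181 in whole animals, without overlap (fold 2.94, log2 1.56 ± 0.15 SE, adjusted p = 0.000259, limma). *syp-4*, whose mRNA did not pass the test, gave 676, 685 and 761 22G-RNA reads in gonads and 238, 339 and 332 in whole animals (fold 2.36, log2 1.24, adjusted p = 0.000586). The other loci called were *syp-1* (log2 1.17), *htp-2* (1.01), *htp-1* (1.00), *htp-3* (0.96) and *rec-8* (0.90).

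*syp-2* rested on 4, 27 and 15 recovered reads in whole animals, or 16.4, 38.1 and 63.0 normalized reads. Its gonad libraries held 98.9, 81.1 and 62.7, so the groups overlapped (log2 1.19, 95% interval 0.15 to 2.24, adjusted p = 0.0531, limma). Without whole animal replicate 3 the change was 1.63 and passed (adjusted p = 0.0146), and edgeR on recovered reads gave 1.06 (adjusted p = 0.019).

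CSR-1-class loci made up 19.8 ± 1.7% of all small RNA values in whole animals and 44.5 ± 1.2% in gonads (mean ± SD, n = 3). Scaled to this class total, a setting chosen after the values were seen, 1 of the 8 loci stayed higher in gonads and 0 were lower, against 7.64% and 20.3% of the class. That locus was *him-3*, at 6.82 ± 0.389 reads per 10000 CSR-1-class reads in gonads and 4.24 ± 0.426 in whole animals (log2 0.69, adjusted p = 0.00109, limma). *syp-4* stood at 8.82 ± 0.299 and 6.86 ± 0.718 (0.37, adjusted p = 0.0215), below the fold threshold, and *rec-8* at 4.82 ± 0.39 and 4.73 ± 0.447 (0.03, adjusted p = 0.857).

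The yield of 22G-RNAs for each mRNA differed among the 8 genes in wild type gonads. *htp-1* gave 80.7 normalized 22G-RNA reads per 100 normalized mRNA reads, a ratio higher than in most of the 3515 CSR-1-class loci compared (percentile 92.4, class median 15.9). *syp-4* (59.0), *htp-3* (53.8), *htp-2* (41.5), *rec-8* (40.8), *syp-1* (38.0) and *him-3* (29.3) also lay above the class median, and *syp-2* (10.5, percentile 34.3) lay below it. These ratios join 2 assays that were scaled apart, so they order genes within 1 group and give no absolute yield.

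The mutants addressed whether loss of piRNAs or of WAGO-class 22G-RNAs alters expression of these genes. By the threshold of a call, 0 of 9 mRNAs were higher or lower in *prg-1* gonads than in the wild type, where 20.7% of 9943 mRNAs were higher and 9.53% lower. In *mut-16* gonads 0 of 9 were called as well, against 15.5% higher and 4.6% lower. Without the fold threshold limma called 3 higher and 1 lower in *prg-1* (24.3% and 18.3% of all mRNAs) and 1 higher and 3 lower in *mut-16* (18.5% and 12.6%). Unadjusted p-values below 0.05 without a fold limit held for 5 of the 9 in *prg-1* and 4 in *mut-16* (limma), where they held for 50.7% and 43.6% of all mRNAs. Both comparisons use the same 3 wild type libraries.

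*syp-4* had the largest difference in *prg-1*. Its mRNA was at 2904, 3067 and 3404 normalized reads in wild type, 3691, 3725 and 4213 in *prg-1* and 3110, 3388 and 3663 in *mut-16*. The *prg-1* libraries all lay above the wild type libraries, by 0.31 on the log2 scale (95% interval 0.14 to 0.49, adjusted p = 0.0097, limma), whereas the *mut-16* libraries overlapped them (0.12, -0.06 to 0.29, adjusted p = 0.284). Matched by replicate number, each *mut-16* library lay above the wild type library of that number. With a replicate block the adjusted p was 0.0463 (limma), still short of 1.3-fold. The labels do not state that libraries of equal number form pairs.

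The paralogs *htp-1* and *htp-2* lay in opposite directions in *mut-16*. *htp-1* was at 4469, 4314 and 4574 normalized mRNA reads in wild type and 3523, 3731 and 3786 in *mut-16*, where it was lower by a log2 change of -0.28 (-0.38 to -0.17, adjusted p = 0.00277, limma). *htp-2* was at 1687, 1736 and 1834 in wild type and 2010, 2152 and 2170 in *mut-16*, a change of 0.27 (0.16 to 0.37, adjusted p = 0.0036). Neither pair of groups overlapped, and neither change reached 1.3-fold. In *prg-1* gonads *htp-1* had 4676, 4792 and 5097 reads (0.12, adjusted p = 0.055) and *htp-2* had 1995, 1944 and 1999 (0.18, adjusted p = 0.0135).

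*htp-3* mRNA lay below wild type in both mutants, at 3413, 3534 and 3731 normalized reads in *prg-1*, 3291, 3474 and 3437 in *mut-16* and 3758, 3991 and 3982 in wild type. The log2 changes were -0.14 (adjusted p = 0.0365, limma) and -0.20 (adjusted p = 0.0117). *him-3* lay above wild type in *prg-1* (0.12, adjusted p = 0.0447) and below it in *mut-16* (-0.13, adjusted p = 0.0367). The remaining 4 mRNAs did not pass in either mutant. Their changes in *prg-1* and *mut-16* were 0.10 and -0.09 for *rec-8*, 0.05 and 0.07 for *syp-1*, 0.15 and -0.09 for *syp-2* and -0.02 and 0.07 for *syp-3*. In *mut-16*, all 3 pairs of equal number moved one way for *syp-1* and *syp-3*, above wild type, and for *syp-2*, below it, with adjusted p of 0.275, 0.47 and 0.388 under the replicate block (limma). Over all 9 genes and both mutants the 95% intervals ran from -0.38 to 0.49 on the log2 scale.

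**Figure D2:**
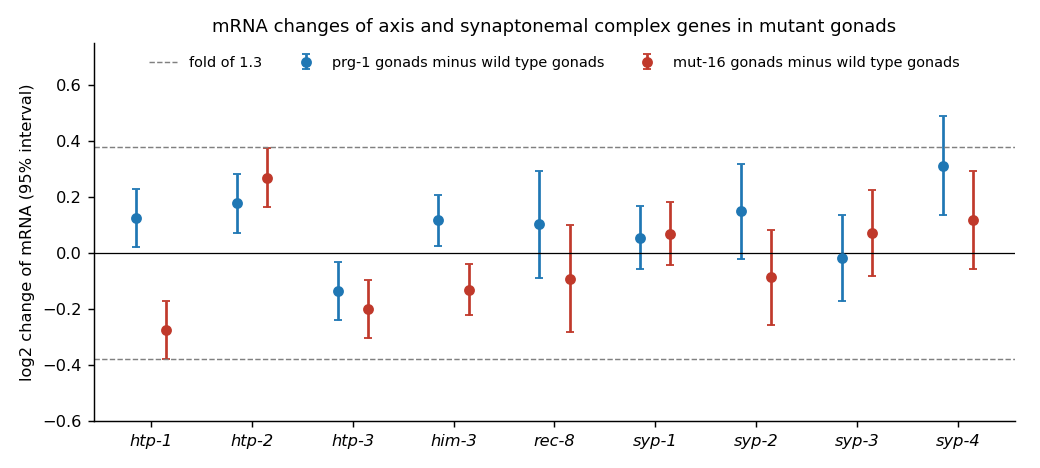
Log2 change of each mRNA in *prg-1* (blue) and *mut-16* (red) gonads against the same wild type gonads, with unadjusted 95% intervals from limma, 3 libraries per group. Dashed lines mark a fold of 1.3 in either direction. The largest values are 0.31 for *syp-4* in *prg-1* and -0.28 for *htp-1* in *mut-16*, all inside the dashed lines.

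Directly compared, the mutants differed by call in *htp-1* only, with more mRNA in *prg-1* than in *mut-16* (fold 1.32, log2 0.40, adjusted p = 0.000197, limma), where 5.8% of mRNAs were higher and 9.58% lower. This call sits at the fold threshold. The log2 change was 0.37 without *mut-16* replicate 1, 0.36 without *prg-1* replicate 3, 0.35 after equalizing library totals and 0.36 under TMM scaling, each short of 1.3-fold.

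Markers of cell types also differed between genotypes beside these values. Normalized reads summed over 10 sperm markers, none at 0, were 83.9 to 358 for the wild type, 1083 to 2723 for *mut-16* and 1844 to 9568 for *prg-1*, with 9 of the 10 called higher in *mut-16* and 10 in *prg-1*. Sums over 6 muscle markers, none at 0, were 378 to 500, 869 to 1148 and 946 to 2107 in the same order, with 4 and 5 of the 6 higher. Germ cell marker sums were 79313 to 85529 for the wild type, 69910 to 74541 for *mut-16* and 82116 to 94669 for *prg-1*. The *mut-16* sums thus lay below the wild type. Oocyte marker sums were 107082 to 110849, 97509 to 98445 and 89404 to 93059, and sums over 5 gonadal sheath markers were 1199 to 1285, 1377 to 2073 and 1519 to 1829, in each case without overlap between wild type and either mutant. By the threshold of a call, few single genes of the germ cell, oocyte and sheath lists passed. Of 8 oocyte markers, 0 were called in *mut-16* and 1 was lower in *prg-1*. Of 8 germ cell markers, 1 was lower in each mutant, and of 4 sheath markers tested, 1 was higher in each. Without the fold threshold, 6 of 8 oocyte markers were lower in *prg-1* and 2 in *mut-16*. Of the germ cell markers, 4 were then lower in *mut-16*, and 1 was lower and 1 higher in *prg-1*. Over all mRNAs, 18.3% in *prg-1* and 12.6% in *mut-16* were lower by that rule. *prg-1* replicate 3 held the highest sperm and muscle sums, and also the highest value of its group for 7 of the 9 mRNAs and the lowest for *syp-2* and *syp-3*. Without that library 0 of 9 mRNAs were still called against wild type. The part of these markers in the changes of the 9 genes was not tested.

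22G-RNAs of the 8 loci in mutant gonads depend on how small RNA libraries are scaled. In values as deposited, 6 of 8 loci were higher in *prg-1* than in wild type gonads, against 21.7% of CSR-1-class loci and 15.3% of all small RNAs. With TMM scaling over miRNAs only, all 8 changes turned negative and 3 loci were called lower, where 84.5% of the class and 84.6% of all small RNAs were lower, a setting that moved the median over all features by -1.26 on the log2 scale.

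As deposited, *htp-1* 22G-RNAs were at 3426, 3554 and 3796 normalized reads in wild type gonads, 5343, 5601 and 6421 in *prg-1* and 3275, 3228 and 3358 in *mut-16*. The *prg-1* libraries lay above all others (log2 change against wild type 0.69 ± 0.07 SE, adjusted p = 8.94e-06, limma), and the *mut-16* libraries lay just below wild type without passing (-0.13, adjusted p = 0.139). *him-3* had the same order, at 1339, 1399 and 1542 in wild type, 2045, 2146 and 2233 in *prg-1* and 1099, 1262 and 1337 in *mut-16* (0.59, adjusted p = 7.87e-05, and -0.21, adjusted p = 0.0435).

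*syp-2* had the largest change in *prg-1*, from 258, 216 and 160 normalized 22G-RNA reads in wild type to 445, 402 and 406 (fold 2.01, log2 1.01, adjusted p = 0.000186, limma). In *mut-16* it was at 294, 248 and 237, overlapping wild type (0.32, adjusted p = 0.1). *htp-2* (0.65), *htp-3* (0.55) and *rec-8* (0.44) were the other loci higher in *prg-1*, and *syp-1* (0.35, adjusted p = 0.00196) and *syp-4* (0.20, adjusted p = 0.013) were short of the fold threshold. The *prg-1* libraries lay above all wild type libraries at all 8 loci, against 38% of the CSR-1 class, and the median change was 0.57, against 0.11 for the class. Without wild type replicate 1, *rec-8* was just short of the threshold (0.37) and *syp-1* passed (0.38), and *syp-1* also passed without wild type replicate 3 (0.40).

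In *mut-16* gonads 5 of 8 loci were higher than in wild type as deposited, against 35.9% of CSR-1-class loci and 23.7% of all small RNAs. Under TMM over all features 2 loci were higher and 2 lower, against 7.37% and 16.3% of the class and 6.81% and 37.1% of all small RNAs. Under TMM over miRNAs only all 8 changes were negative and 2 were called lower, against 32% of the class and 44.3% of all small RNAs. *rec-8* had the largest change, from 917, 999 and 1108 normalized 22G-RNA reads in wild type to 1805, 1771 and 1803 (fold 1.78, log2 0.83, adjusted p = 1.17e-06, limma). *syp-4* went from 1765, 1825 and 1939 to 2904, 2965 and 3138 (fold 1.63, log2 0.70, adjusted p = 1.59e-06), and *htp-3* from 2029, 2061 and 2227 to 2980, 3144 and 3235 (fold 1.48, log2 0.57, adjusted p = 1.25e-05). None of these groups overlapped. *syp-1* (0.45) and *htp-2* (0.40) were also called. *syp-1* was lost without wild type replicate 2 (0.37) and *htp-2* without *mut-16* replicate 3 (0.34), and *syp-2* passed without wild type replicate 1 (0.48).

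**Figure D3:**
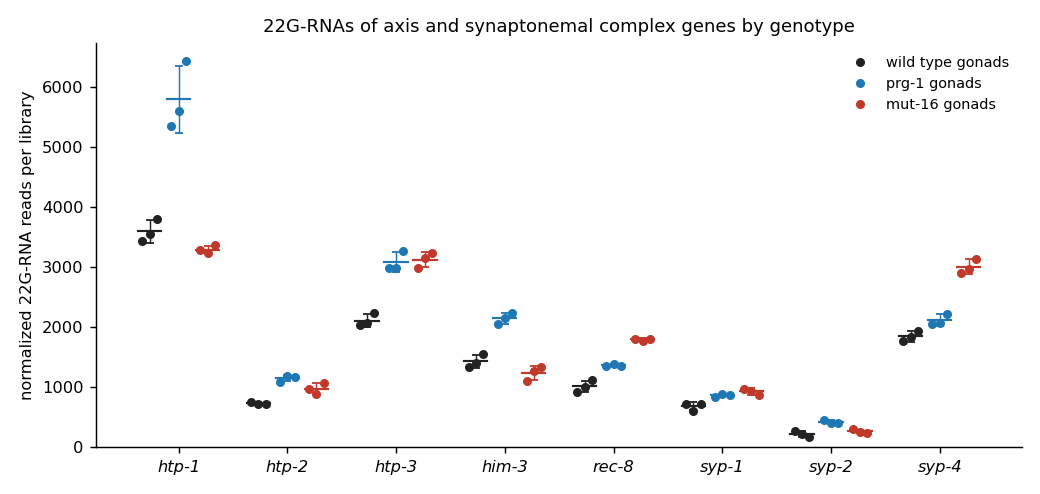
Normalized 22G-RNA reads, as deposited, of the 8 loci in each of 3 gonad libraries per genotype (points), with the group mean (long bar) and SD (error bar). *htp-1* and *him-3* peak in *prg-1*, while *rec-8* and *syp-4* peak in *mut-16*. With TMM over miRNAs only, both mutants lie below wild type at all 8 loci.

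A scale set only by the class these loci belong to does not depend on the amount of other small RNAs. CSR-1-class loci held 44.5 ± 1.2% of values in wild type gonads, 45.4 ± 1.65% in *prg-1* and 82.1 ± 5.72% in *mut-16* (mean ± SD, n = 3). Within the class, the 8 loci together made up 0.554 ± 0.0168% in wild type, 0.639 ± 0.0196% in *prg-1* and 0.589 ± 0.0134% in *mut-16*. The 3 groups did not overlap, with ranges of 0.538 to 0.572%, 0.62 to 0.659% and 0.574 to 0.601%.

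With CSR-1-class totals made equal, 1 of 8 loci was higher in *prg-1* than in wild type and 0 were lower, against 5.49% and 31% of the class. This was *syp-2*, at 1.58 ± 0.115 reads per 10000 class reads in *prg-1* and 1.01 ± 0.25 in wild type (log2 0.67, adjusted p = 0.00464, limma). *htp-1* was at 21.9 ± 1.57 and 17.2 ± 0.652 (0.35, adjusted p = 0.000252), *htp-2* at 0.31, *him-3* at 0.25 and *htp-3* at 0.21 on the log2 scale, all with an adjusted p below 0.05 and a fold under 1.3. *syp-4* lay slightly below wild type on this scale (-0.14, adjusted p = 0.0233), the reverse of its sign as deposited.

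In *mut-16* gonads 3 of 8 loci were called on the same scale, 2 higher and 1 lower, where 24.5% of the class were called in either direction. *rec-8* rose to 7.24 ± 0.215 reads per 10000 class reads from 4.82 ± 0.39 (log2 0.59, adjusted p = 1.3e-05, limma), and *syp-4* to 12.1 ± 0.383 from 8.82 ± 0.299 (0.46, adjusted p = 8.7e-06). *him-3* fell to 4.97 ± 0.4 from 6.82 ± 0.389 (-0.46, adjusted p = 0.000151), and *htp-1* was at 13.3 ± 0.38 and 17.2 ± 0.652, just under the fold threshold (-0.37, adjusted p = 0.000201). Among the 3555 CSR-1-class loci tested, the as-deposited change of *rec-8* stood at percentile 96.2 and that of *syp-4* at 92.5, while *htp-1* stood at 18.3 and *him-3* at 15.6.

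**Figure D4:**
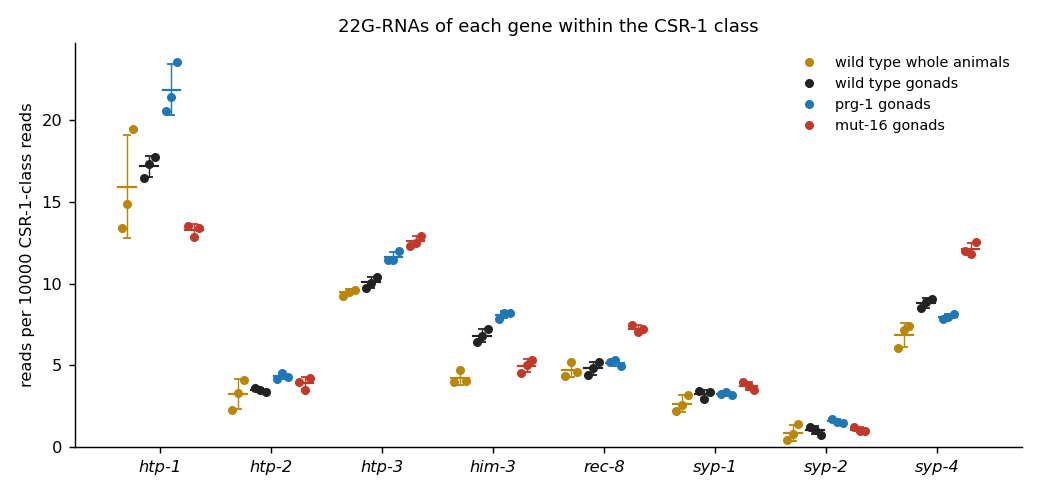
22G-RNA reads of each locus per 10000 reads of all CSR-1-class loci in the same library, 3 libraries per group (points), with the group mean (long bar) and SD (error bar). The *mut-16* points lie above the wild type gonad points at *htp-3*, *rec-8*, *syp-1* and *syp-4* and below them at *htp-1* and *him-3*.

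The mutants were also set against each other. These log2 changes use no wild type values, although the wild type libraries share the fit, its filter and its estimate of spread. As deposited, *htp-1* (log2 0.81, adjusted p = 1.66e-06, limma), *him-3* (0.80, adjusted p = 5.66e-06) and *syp-2* (0.69, adjusted p = 0.00258) had more 22G-RNAs in *prg-1* than in *mut-16*, and *syp-4* (-0.51, adjusted p = 1.7e-05) and *rec-8* (-0.40, adjusted p = 0.000342) had fewer. The 3 higher and 2 lower of 8 compare with 7.74% and 22.4% of the CSR-1 class, and with 23.9% and 35.6% of all small RNAs. With CSR-1-class totals made equal the same 5 loci were called in the same directions (0.72, 0.71, 0.60, -0.60 and -0.49), where 6.44% of the class were higher and 31.7% lower. With library totals made equal, however, *htp-1*, *him-3* and *syp-2* turned negative, at -0.13, -0.15 and -0.25, and the median over all features moved by -0.92.

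The mRNA and 22G-RNA changes of the same genes in *mut-16* differed from gene to gene. *htp-3* mRNA lay lower (-0.20) while its 22G-RNAs were higher (0.57 as deposited, 0.32 by class totals). *htp-1* and *him-3* lay lower in mRNA (-0.28 and -0.13). Their 22G-RNAs were at -0.13 and -0.21 as deposited and at -0.37 and -0.46 by class totals. With library totals made equal they were at 0.51 and 0.42. *htp-2* lay higher in mRNA (0.27) and in 22G-RNAs (0.40 as deposited, 0.16 by class totals). The mRNAs of *syp-1*, *syp-2* and *syp-4* did not pass. With TMM over miRNAs only, every 22G-RNA change was negative. *rec-8* mRNA did not pass (-0.09, 95% interval -0.28 to 0.10) beside the largest 22G-RNA change (0.83 as deposited, 0.59 by class totals).

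The share of *htp-2* in the sum of *htp-1* and *htp-2* needs no scaling between libraries. It was 27.4, 28.7 and 28.6% of mRNA reads in wild type gonads, 29.9, 28.9 and 28.2% in *prg-1* and 36.3, 36.6 and 36.4% in *mut-16*. The *mut-16* libraries stood apart from all others, 8.21 percentage points above wild type, while *prg-1* and wild type overlapped. In 22G-RNAs the share was 17.9, 16.7 and 16.0% in wild type, 16.9, 17.4 and 15.4% in *prg-1* and 22.7, 21.4 and 24% in *mut-16*, 5.82 points above wild type and again without overlap. Each *mut-16* difference gave p = 0.1 in an exact two-sided permutation test, the smallest that 3 against 3 libraries allow. How reads common to both paralogs were divided is not given for 22G-RNAs in the sources used here, and for mRNAs RSEM estimates it, so the share reflects that division too. In whole wild type animals the mRNA share was 33.3, 31.2 and 28.8%, all above the gonads (gonad minus whole animal -2.89 points, exact permutation p = 0.1), and the 22G-RNA share was 14.6, 18.3 and 17.5%, overlapping gonads (exact permutation p = 1).

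**Figure D5:**
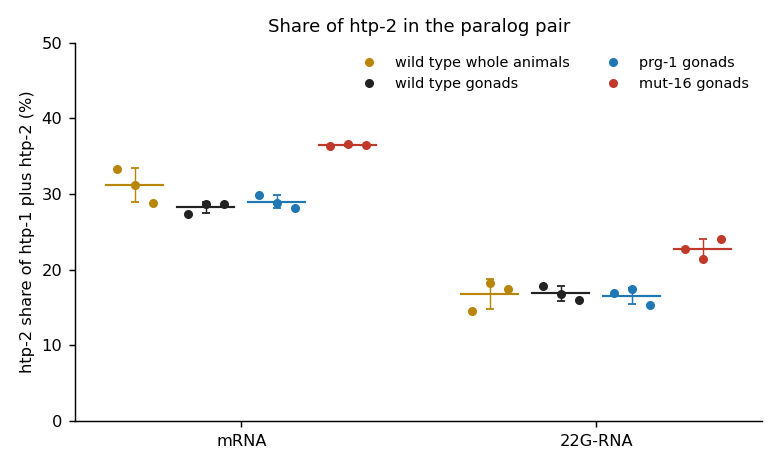
Share of *htp-2* in the summed reads of *htp-1* and *htp-2*, in percent, for mRNA (left) and 22G-RNA (right), 3 libraries per group (points), with the group mean (long bar) and SD (error bar). *mut-16* gonads average 36.4% in mRNA and 22.7% in 22G-RNA, against 28.2% and 16.9% in wild type gonads.

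Neighbouring genes of the meiotic program gave few mRNA calls in the mutants. In *prg-1* 0 cohesin and axis partners were higher and 1 of 12 was lower, *coh-1*, another cohesin kleisin, at 77 ± 14.9 normalized reads against 153 ± 15 in wild type (log2 -1.0, adjusted p = 0.00117, limma). None of 20 assembly genes and 18 break and crossover genes were called there. In *mut-16* the assembly gene *zhp-4* (-0.39) and the crossover genes *rec-1* (-0.46) and *brc-1*, the worm BRCA1 (-0.39), were lower and 0 genes of the 3 lists were higher. With library totals made equal the assembly call was lost, and 1 break and crossover gene was lower and 1 higher. Between the mutants, *coh-1* (-0.73) and *rad-50* (-0.44) were lower in *prg-1* and *rec-1* (0.65) was higher.

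22G-RNAs of these neighbours were called more often, as deposited, and calls were also frequent over the CSR-1 class. Of its loci, 60.9% were higher in gonads than in whole animals, 21.7% in *prg-1* and 35.9% in *mut-16*. The shares lower were 0.858%, 12.2% and 8.64%. In gonads against whole animals, 9 of 11 cohesin and axis loci, 12 of 16 assembly loci and 7 of 17 break and crossover loci were higher and 0 lower. The cohesin and axis loci changed most were *scc-1* (log2 1.28) and *him-1*, the cohesin subunit SMC1 (1.15). Among assembly loci these were *sun-1*, the nuclear envelope protein that moves chromosome ends (1.32), and *skr-2* (2.17). Among break and crossover loci they were *com-1* (1.2) and *him-5* (1.72). *skr-2* went from 2.31 ± 2.10 to 11.1 ± 0.378 normalized reads, where the added 1 weighs on the value. Only its gonad libraries reached the filter of 10 reads in 3 libraries, so this locus was tested because of its higher group. With CSR-1-class totals made equal, 1 locus of each list was higher and 0, 1 and 9 were lower.

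In *prg-1*, as deposited, 3 of 11, 5 of 17 and 5 of 17 loci were higher, among them *coh-3* (0.47), *mau-2* (0.45), *hal-3* (0.72), *syp-5*, another synaptonemal complex gene (0.69), *rad-50* (0.68) and *brd-1* (0.59), and the cohesin loader *scc-2* alone was lower (-0.59). These directions rest on the scaling, since with CSR-1-class totals made equal 0, 1 and 0 were higher and 3, 1 and 2 lower, and with TMM over miRNAs only 0 were higher and 11, 13 and 15 lower.

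In *mut-16*, 2 of 11, 6 of 17 and 7 of 17 loci were higher and 0, 1 and 2 lower as deposited. With CSR-1-class totals made equal 0, 5 and 2 were higher and 1, 1 and 2 lower, and with TMM over miRNAs only 0 were higher and 3, 4 and 6 lower. The higher ones as deposited were led by *coh-3* (0.56), *wapl-1* (0.52), *hal-3* (0.99), *skr-2* (0.88), *brd-1* (0.83) and *xnd-1* (0.82). *zim-1*, a zinc finger gene of chromosome pairing, fell from 1964 ± 137 to 469.7 ± 11.3 normalized reads (log2 -2.06, adjusted p = 9.61e-10, limma), *rec-1* fell by 1.26 and *cosa-1* by 0.61 on the log2 scale. *zim-1* is listed in both 22G-RNA classes and *rec-1* in the WAGO class, unlike the 8 loci described above. Each gene was counted once in these lists, so 1 listing of *zim-1* gave all values printed for it. Between the mutants, *zim-1* (2.27), *rec-1* (1.08) and *rad-50* (0.61) were higher in *prg-1*, and *scc-2* (-0.45), *plk-2* (-0.46), *skr-2* (-0.57), *him-6* (-0.54) and *dsb-1* (-0.41) were lower.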

How the data were processed

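Both assays were deposited as normalized read signal, scaled by the authors. Per the study's methods, mRNA reads were trimmed with Trimmomatic 0.35, aligned to WormBase release WS230 with STAR 2.5.0a and counted with RSEM 1.3.0. Small RNAs of 16 to 30 nt were treated with RNA polyphosphatase, which lets 22G-RNAs be ligated, and mapped with CASHX. The scaling behind the deposited values and the strand used in small RNA counting are not given in the sources used here. Gonad and whole animal tables were scaled apart and never joined, and 0 columns were left without a sample. The transposon tables were not used.

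limma 3.58.1 (trend, robust) was run on log2(value + 1), where the pseudocount of 1 understates changes of low genes. Features reaching 10 in at least 3 libraries were tested, with 6 libraries in the tissue fit and 9 in the genotype fit, Benjamini-Hochberg adjustment over all features tested, and a call at adjusted p < 0.05 and a fold of at least 1.3. As alternatives, small RNA reads worked back from the steps were tested with edgeR 4.0.16 and DESeq2 1.42.0, without *prg-1* replicate 1. edgeR called 2379 higher and 1752 lower small RNAs between tissues, 1396 and 3795 in *prg-1*, 2066 and 2690 in *mut-16*, and 1897 and 2807 between mutants. Intervals of log2 changes reflect the spread between libraries. R 4.3.3 and Python 3.11.15 were used.

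The members, marker lists and pathway lists were chosen with earlier results of these data known. Named in the text are the 9 genes, the mutated genes, from each pathway list up to 2 called genes with the largest rise and up to 2 with the largest fall in each comparison, and the 5 most similar profiles. Genes were named through RefSeq, assembly WBcel235 (21438 of 22844 mRNA features and 5431 of 6074 22G-RNA loci matched), and its coordinates were not used because the release differs. Alternatives were library totals made equal, TMM over all features or over miRNAs, no low-value filter, pseudocounts 0.5 and 5, a replicate block, the count tests, no fold threshold, fits of just the 2 groups in question and each library left out. CSR-1-class totals made equal was added after the values were seen.

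Residuals of *mut-16* and wild type gonad mRNA libraries of equal replicate number had correlations of 0.12, 0.55 and 0.36 for replicates 1, 2 and 3. For *prg-1* and wild type gonads they were 0.44, -0.16 and -0.41. Libraries of unequal number were not compared and the labels state no pairs, so these values cannot decide whether the libraries were paired. No other comparison had all 3 correlations over 0.1.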

Additional observations from a re-analysis of the deposited data

How the results depend on the processing

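With a replicate block, which matches libraries of equal number, the genes called stayed at 8, 0, 0 and 1 in mRNA (gonads against whole animals, *prg-1* against wild type, *mut-16* against wild type, *prg-1* against *mut-16*) and at 7, 6, 5 and 5 in 22G-RNA, and no call changed. Without the fold threshold, the block added *syp-4* mRNA in *mut-16* (adjusted p = 0.0463, limma) and between mutants (adjusted p = 0.00704). It also added *htp-1* mRNA in *prg-1* (adjusted p = 0.0322) and *syp-2* 22G-RNA in *mut-16* (adjusted p = 0.041). Between tissues, equal library totals moved the median over all features by -0.11 in mRNA and 0.29 in 22G-RNA, and TMM by 0.07 and 0.12, and 8 mRNAs were called higher in gonads under both. Of 1208 values of 68 log2 changes under alternatives, 1106 kept direction and call, 31 gained a call, 38 lost it and 33 changed sign, 25 of these for mutant 22G-RNAs under another scaling. Without the fold threshold, mRNA calls were 4 in *prg-1*, 4 in *mut-16* and 3 between mutants, and 22G-RNA calls in *mut-16* were 6. Between mutants, mRNA calls were 0 under either scaling, equal library totals or TMM.

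For 22G-RNAs with library totals made equal, calls in *prg-1*, in *mut-16* and between mutants were 1, 8 and 5 (all 5 lower). On that scale 5.96% of CSR-1-class loci were higher in *prg-1*, 83.1% were higher in *mut-16* and 90.9% were lower between mutants. Most of the class thus moved as these loci did in *mut-16* and between mutants. Calls with TMM over all features were 3, 4 and 4. With TMM over miRNAs only, *prg-1* had 3 and *mut-16* 2, all lower, and between mutants there were 0. With CSR-1-class totals made equal, chosen after seeing the data, calls were 1 between tissues, 1 in *prg-1* and 3 in *mut-16*.

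Signs turned with library totals made equal for *syp-4* in *prg-1* (-0.11), *him-3* (0.42) and *htp-1* (0.51) in *mut-16*, and *syp-2* (-0.25), *htp-2* (-0.70), *him-3* (-0.15) and *htp-1* (-0.13) between mutants. They turned with TMM for *syp-4* 22G-RNA in *prg-1* (-0.0649), *htp-3* 22G-RNA between mutants (0.0134) and *syp-1* mRNA in *prg-1* (-0.0089), and with CSR-1-class totals for *syp-4* in *prg-1* (-0.14). With TMM over miRNAs only, changes in *prg-1* were -0.59 for *htp-1*, -0.62 for *htp-2*, -0.73 for *htp-3*, -0.69 for *him-3*, -0.83 for *rec-8*, -0.92 for *syp-1*, -0.26 for *syp-2* and -1.08 for *syp-4*. In *mut-16* they were -0.59 for *htp-2*, -0.43 for *htp-3*, -0.16 for *rec-8*, -0.55 for *syp-1*, -0.68 for *syp-2* and -0.29 for *syp-4*, and between mutants -0.0284 for *htp-2*. Values near 0 also turned between mutants for *htp-3* 22G-RNA with edgeR (0.00298) and DESeq2 (0.000987). With 1 library left out, this value ran from -0.0654 to 0.00585, *syp-1* mRNA between mutants from -0.0557 to 0.0262, and *syp-3* mRNA in *prg-1* from -0.0821 to 0.0472. The cause was not tested.

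With each library left out in turn, mRNA calls stayed at 8, 0 and 0 and ran from 0 to 1 between mutants. 22G-RNA calls ran from 7 to 8, 6 to 7 and 4 to 6, and stayed at 5 between mutants. The *htp-2* mRNA share difference ran from -4.03 to -1.79 points between tissues, 0.277 to 1.14 in *prg-1*, 7.79 to 8.43 in *mut-16* and -7.93 to -7.06 between mutants.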
